A study of Rattus norvegicus with 36 samples.

Results

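Integrins and laminins were followed across 33 mammary cancers and 3 normal mammary tissues of female Sprague-Dawley rats, each measured on 1 single-colour array. The members are the probe sets annotated with exactly 1 symbol that names an integrin subunit (Itga, Itgb) or a laminin chain (Lama, Lamb, Lamc). They number 48 probe sets of 32 genes, of 31099 probe sets on the array, and comprise 22 integrin genes (34 probe sets) and 10 laminin genes (14 probe sets). The rule reads symbols and no measured value, but the family was picked with earlier results of these data known.

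The cancers form 9 groups. Treatments began at 7 weeks of age. Some cancers arose after 1 Gy of whole-body gamma rays (radiation, n = 4). The alkylating agent MNU was injected at 40 mg per kg, and the food mutagen PhIP was given by gavage at 40 mg per kg and day on 5 days of each of 2 weeks. The MNU cancers were H-ras mutated (n = 5) or nonmutated (n = 4), and so were the PhIP cancers (n = 1 and n = 3). In the combined groups the chemical came 3 days after radiation, giving radiation plus MNU cancers with mutated (n = 5) and nonmutated H-ras (n = 4), and radiation plus PhIP cancers with nonmutated H-ras (n = 4). Spontaneous cancers arose in untreated rats (n = 3), and these and the radiation cancers were nonmutated. Normal mammary tissue came from untreated rats (n = 3), and every rat ate a diet of 23.5% corn oil from 9 weeks of age. The tissue is a bulk extract, so fewer cells of a type and less RNA per cell cannot be told apart. Nothing in the labels says that each array came from a different rat, so p-values measure the spread between these samples.

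Integrins are cell surface receptors made of 1 alpha and 1 beta chain, and the pairing sets what they bind: laminin, collagen, RGD-containing proteins such as fibronectin, or counter-receptors on other cells. Laminins are trimers of 1 alpha, 1 beta and 1 gamma chain and form the sheet of the basement membrane. In the mammary gland the basement membrane surrounds the ducts and alveoli, and myoepithelial and luminal cells attach to it through laminin-binding integrins, among them the hemidesmosome integrin made of the Itga6 and Itgb4 chains. Many leukocyte integrins share the Itgb2 chain.

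Values are log2(intensity + 42.8), so a difference of 1 is a doubling on that scale and low signals show compressed changes. Of the 48 probe sets, 44 exceeded an intensity of 125.8 on at least 3 arrays and were tested, and they covered all 32 genes. The 4 others were 1 probe set each of Itga6, Itga7, Itgb5 and Lama5, genes that other probe sets also measured. Probe sets of 1 gene are given separately where they differ, and levels are not set against each other between probe sets. The array medians ran from 161.4 to 222.7. The fourth nonmutated MNU cancer had a hexokinase 3'/5' signal ratio of 12.3 against a median of 2.37 over all arrays, and the third normal tissue had the highest signal ceiling, 32544. Without both arrays the Itgav calls described below were lost, with adjusted p of 0.104 and 0.221. Nonmutated PhIP cancer 2 stood apart, with a summed intensity of 6 fibroblast markers of 2376 against 12128 or more in every other cancer, and it was the lowest cancer for Itga11, Itgb3, Lama2 and the brighter Itga8 probe set. Without it 18 integrin and laminin probe sets were called between cancers and normal tissue, against 17 with it, and the Lama2 difference was -1.09 and still passed the limma test.

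In the cancers, the laminin chains Lamb3, Lama5 and Lamc1 and the epithelial integrin chain Itgb6 were higher than in normal tissue. The muscle-type laminin receptor Itga7, the leukocyte chains Itgb2 and Itgax, and the laminin chains Lama2 and Lamc3 were lower. Of the 44 tested probe sets, 17 passed an adjusted p of 0.05 in limma's test, 11 higher and 6 lower. That is 38.6% of the members, where 30.5% of all 21947 probe sets tested passed (17.4% higher and 13.1% lower), so the share lies near the background. Without adjustment 19 of 44 members and 41.2% of all probe sets were under a p of 0.05. The median log2 difference was -0.0018 over the members and 0.053 over all probe sets. By gene, 8 of 32 had a higher probe set, 5 had a lower one and 19 had none. No gene had both. Between the families, 7 of 31 integrin probe sets rose and 4 fell (median difference -0.08), and 4 of 13 laminin probe sets rose and 2 fell (median difference 0.36). For 9 probe sets (5 above, 4 below) no cancer overlapped the normal tissues, against 6.98% of all probe sets (3.72% above and 3.25% below). The 6 lower calls and the 4 below include Itga7 on probe set 1388240_a_at. It exceeded the intensity limit only on the 3 normal tissues, so it was tested only because it is high there and adds little to these counts.

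**Figure D1:**
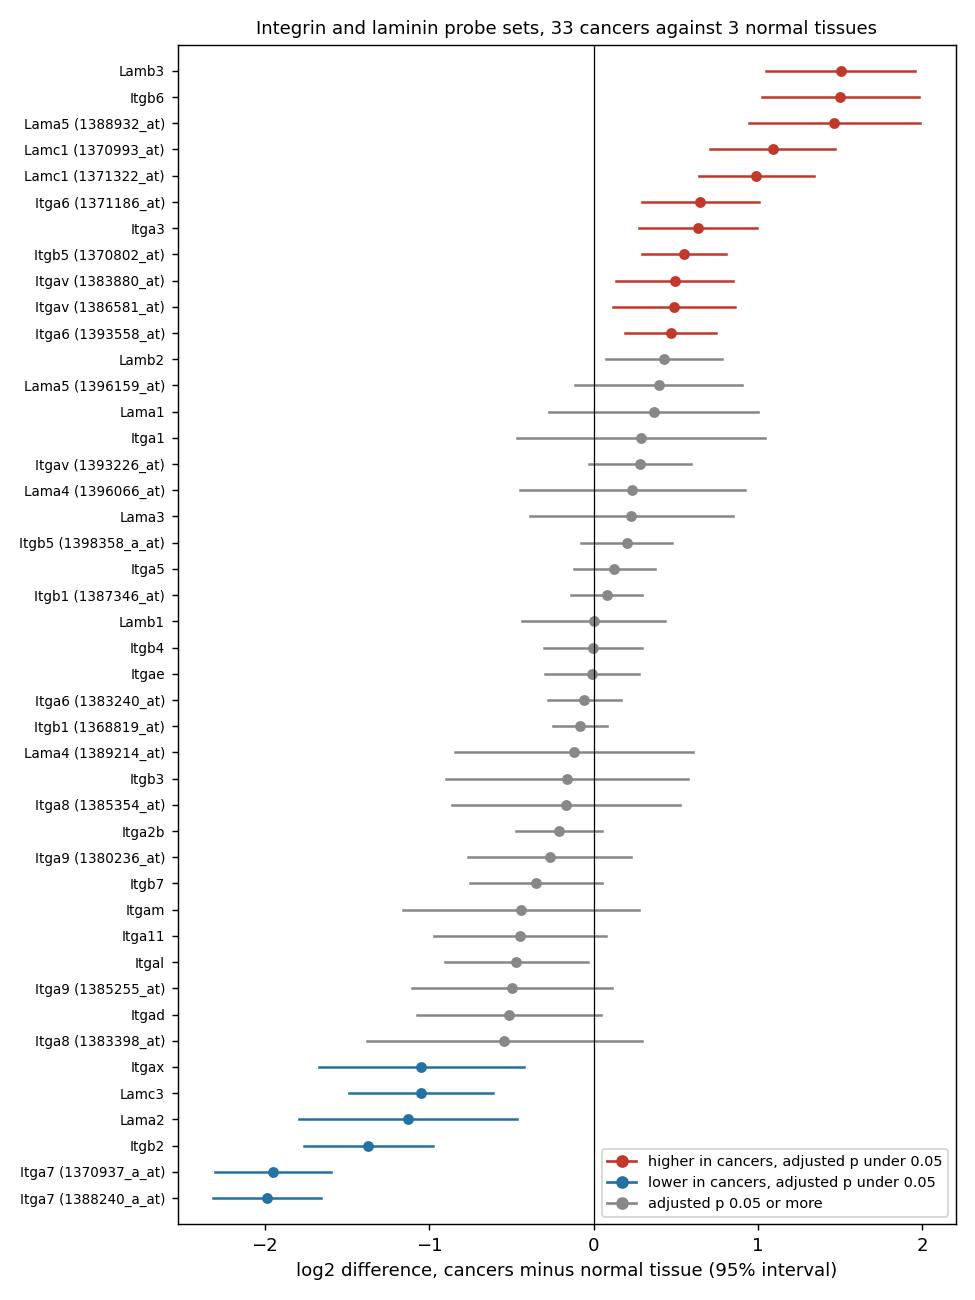
Log2 difference of the 33 cancers minus the 3 normal tissues for the 44 tested probe sets, with 95% intervals from limma. Lamb3 (1.502), Itgb6 (1.4997) and Lama5 (1.46) stand at the top and both Itga7 probe sets (-1.95 and -1.99) at the bottom, while Itgb1, Itgb4 and Lamb1 lie at 0. The Itga7 probe set at -1.99 (1388240_a_at) exceeded the intensity limit only on the 3 normal tissues.

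Among the laminin chains, Lamb3, the beta chain of the epithelial laminin that anchors hemidesmosomes, had the largest rise. It ran from 10.47 to 11.94 in the cancers with a median of 11.003, and stood at 9.61, 9.42 and 9.81 in the normal tissues. All 33 cancers lay above all 3 normal tissues. The difference was 1.502 ± 0.22 (SE, limma adjusted p 7.98e-06), a fold of 2.83 on the offset scale, from means of 11.11 ± 0.39 (SD, n = 33) in cancers and 9.61 ± 0.19 (SD, n = 3) in normal tissue. Its partner alpha chain Lama3 differed by 0.23 ± 0.30 (95% interval -0.386 to 0.846), which did not pass the test.

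Lama5, the alpha chain found in most adult epithelial basement membranes, ran from 10.66 to 12.67 with a median of 11.72 in the cancers. The normal tissues had 10.14, 10.10 and 10.49. No cancer overlapped them, and the difference was 1.46 ± 0.25 (SE, limma adjusted p 7.46e-05). A second, dim Lama5 probe set (1396159_at), over the intensity limit on 13 arrays, differed by 0.40 ± 0.25 and did not pass (adjusted p 0.233).

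Lamc1, the gamma chain shared by most laminins, was higher on both of its probe sets. The brighter one (1371322_at) ran from 11.42 to 12.54 in the cancers with a median of 11.97, and had 11.04, 10.76 and 11.04 in the normal tissues. It again separated every cancer from every normal tissue, with a difference of 0.99 ± 0.17 (SE, limma adjusted p 6.94e-05). The other (1370993_at) differed by 1.09 ± 0.19, likewise with no overlap. The single PhIP cancer with mutated H-ras was the lowest cancer for the brighter Lama5 probe set and for both Lamc1 probe sets. That cancer also had the highest adipocyte marker sum of the 33, 8944, where the next was 5810, the median 2859 and the normal tissues 27070 to 37043. The part of this signal in its values was not tested.

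Lama2 and Lamc3 went the other way. Lamc3, a gamma chain with restricted expression, ran from 7.32 to 8.98 in the cancers with a median of 8.27, and had 9.10, 9.23 and 9.41 in the normal tissues. The groups did not overlap and the difference was -1.05 ± 0.21 (SE, limma adjusted p 0.000473). The single mutated PhIP cancer was the cancer closest to the normal tissues. Lama2, the alpha chain of the laminin around muscle fibres and Schwann cells, ran from 6.71 to 9.32 with a median of 8.09 in the cancers and had 9.22, 9.55 and 8.92 in the normal tissues. It was below all 3 normal tissues in 32 of 33 cancers, with a difference of -1.13 ± 0.32 (limma adjusted p 0.00921, and 0.081 without the second normal tissue).

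The 5 remaining laminin chains did not pass the test: Lama1, Lama3, Lama4, Lamb1 and Lamb2. Lamb2 came closest, with 11.32 ± 0.32 in cancers and 10.90 ± 0.24 in normal tissue (SD, n = 33 and 3) and a difference of 0.43 ± 0.17 (adjusted p 0.0579). Lamb1, the beta chain of widely expressed laminins, had 10.47 ± 0.34 and 10.47 ± 0.40 in the same order, and its difference lay between -0.436 and 0.435 (95% interval). Lama4, the laminin alpha chain of vessels and fat, differed by -0.12 ± 0.35 and 0.24 ± 0.33 on its probe sets. Lama1 differed by 0.36 ± 0.31.

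**Figure D2:**
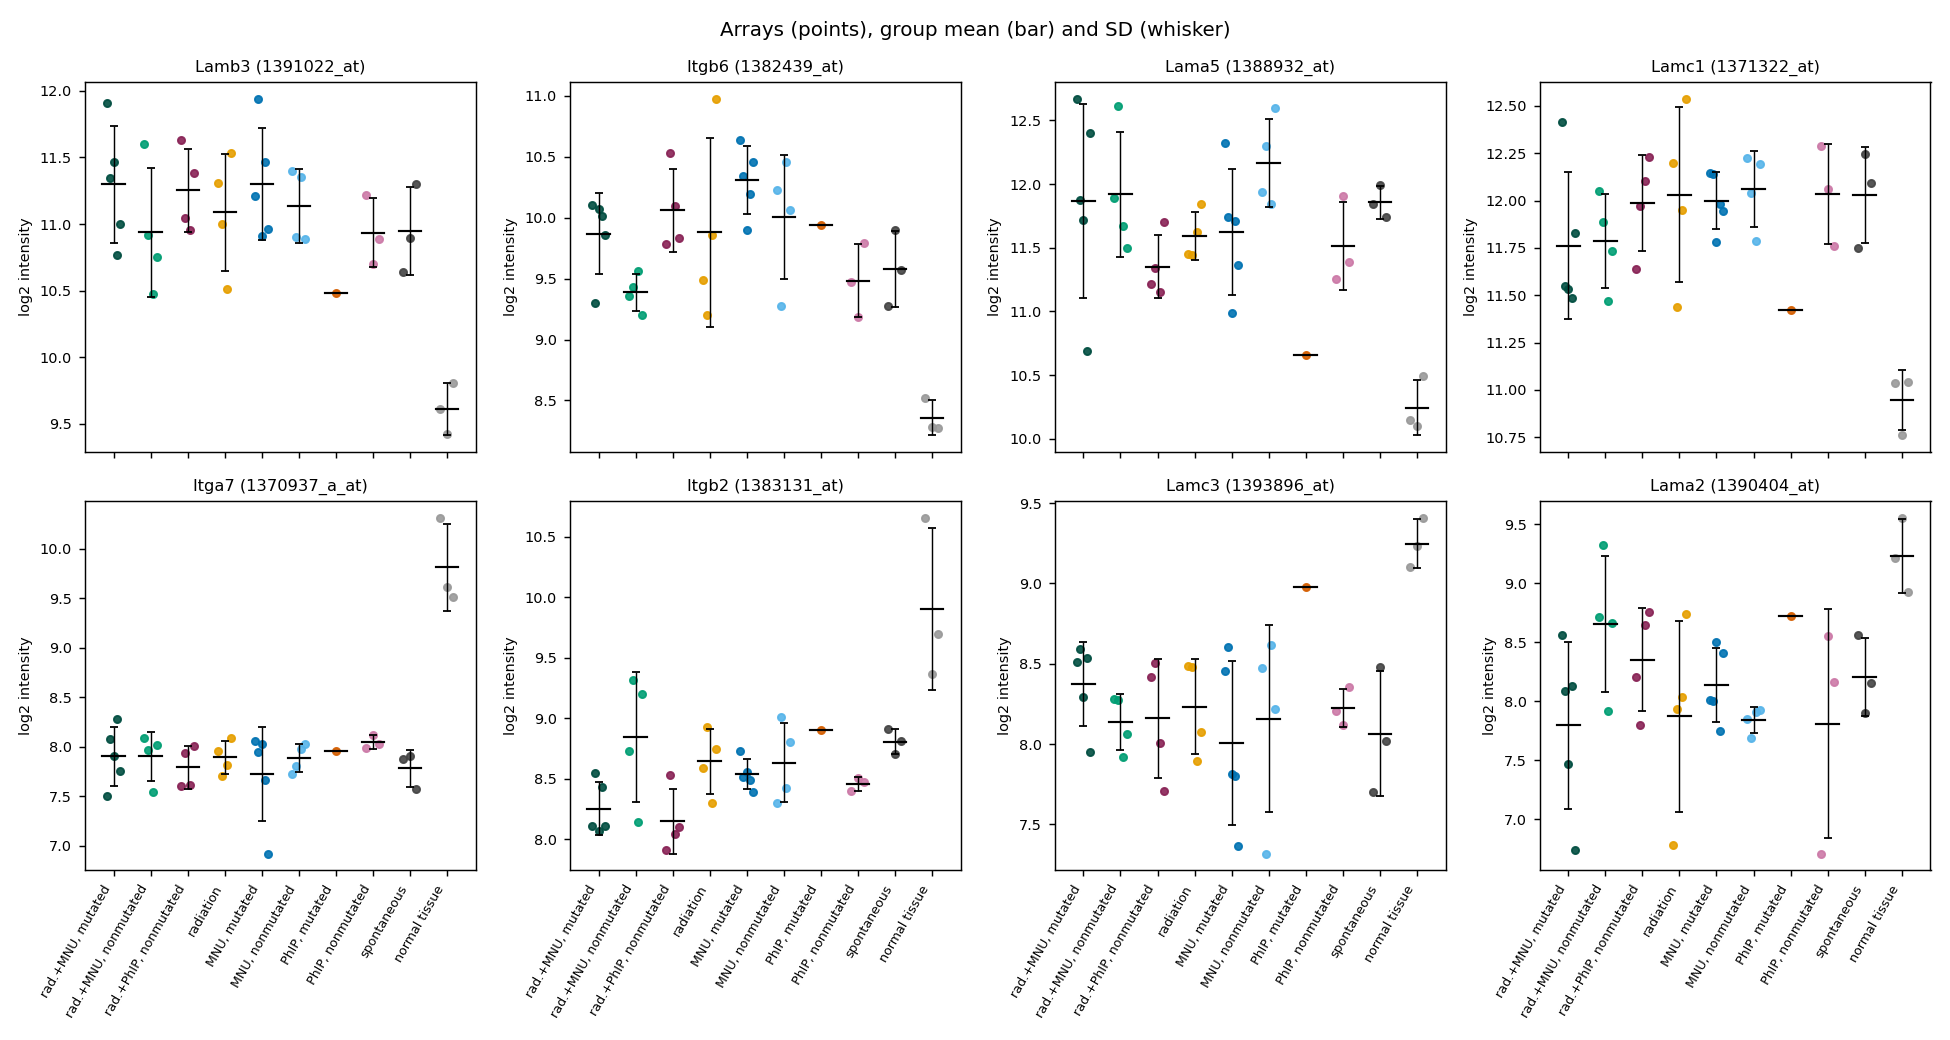
Log2 intensity on every array for 8 probe sets, 1 per gene, among those with the largest changes, by group, with the cancer groups left of normal tissue (points are arrays, bars are means, whiskers are SD, and the mutated PhIP group has 1 array). In 7 panels every cancer lies beyond all normal tissues, and in the Lama2 panel 1 of 33 cancers, in the nonmutated radiation plus MNU group, does not.

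The laminin-binding alpha chains split. Itga7, which pairs with Itgb1 and is known as the laminin receptor of muscle fibres, had the largest fall of any member. Its brighter probe set (1370937_a_at) ran from 6.92 to 8.28 in the cancers with a median of 7.94, and had 10.31, 9.61 and 9.51 in the normal tissues. All 33 cancers were lower, by 1.95 ± 0.17 (SE, limma adjusted p 1.16e-09, fold 3.86). The other probe set (1388240_a_at) differed by -1.99 ± 0.16, but it exceeded the intensity limit on 3 arrays only, so its place among the tested probe sets rests on its high signals and its call adds little. None of 7 skeletal muscle markers and none of 4 smooth muscle and pericyte markers passed the test. The summed intensity of the muscle markers was 4691 to 13532 in the cancers and 5494 to 8037 in the normal tissues.

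Itga3, the alpha chain of the main laminin receptor of basal epithelial cells, rose. It ran from 10.90 to 12.09 in the cancers with a median of 11.54, and had 10.93, 10.61 and 11.01 in the normal tissues. The difference was 0.64 ± 0.18 (limma adjusted p 0.00678), with 31 of 33 cancers above every normal tissue, and without the second normal tissue the adjusted p was 0.083. Itga6 depended on the probe set. Probe sets 1371186_at and 1393558_at rose by 0.65 ± 0.17 and 0.47 ± 0.13 (limma adjusted p 0.00537 and 0.00919), whereas the brightest, 1383240_at, differed by -0.06 ± 0.11 (95% interval -0.278 to 0.167). Without the first normal tissue, the adjusted p of those that rose was 0.102 and 0.189. Which transcripts each probe set reads was not examined.

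The beta partners of these chains had differences close to 0. Itgb4, which pairs only with Itga6, had 11.64 ± 0.26 in cancers and 11.64 ± 0.18 in normal tissue (SD), and its difference lay between -0.302 and 0.296 (95% interval). Itgb1, the partner of most alpha chains, differed by -0.08 ± 0.08 (95% interval -0.244 to 0.081) on its brighter probe set and 0.08 ± 0.11 on the other. Neither beta chain passed the test.

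Of the chains that bind RGD-containing ligands, Itgb6 rose most. It pairs with Itgav into an epithelial receptor for fibronectin that can activate latent TGF-beta, and is low in resting epithelia. It ran from 9.19 to 10.97 in the cancers with a median of 9.86, and stood at 8.52, 8.28 and 8.27 in the normal tissues. Every cancer was above every normal tissue, with a difference of 1.4997 ± 0.23 (SE, limma adjusted p 1.85e-05, fold 2.83).

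Itgb5, which also pairs with Itgav and binds vitronectin, rose by 0.55 ± 0.13 on probe set 1370802_at (limma adjusted p 0.00146, 31 of 33 cancers above every normal tissue). Its brighter probe set 1398358_a_at differed by 0.20 ± 0.14 and did not pass. Itgav itself rose on its dimmer probe sets 1383880_at and 1386581_at, by 0.49 ± 0.17 and 0.49 ± 0.18 (limma adjusted p 0.0314 and 0.0405). Its brightest probe set differed by 0.28 ± 0.15 (adjusted p 0.157). The Itgav calls were lost under several settings: their adjusted p was 0.067 and 0.083 after quantile normalization, 0.091 and 0.104 after median centring, 0.180 and 0.175 without the second normal tissue, and 0.109 and 0.226 without the third. The fibronectin receptor chain Itga5 differed by 0.13 ± 0.12, the platelet chain Itga2b by -0.21 ± 0.13 and its partner Itgb3 by -0.16 ± 0.36. Itga8 differed by -0.54 ± 0.41 and -0.17 ± 0.34 on its probe sets. The collagen receptor chains Itga1 and Itga11 differed by 0.29 ± 0.37 and -0.45 ± 0.26, and Itga9 by -0.27 ± 0.24 and -0.50 ± 0.30. None of these passed.

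Of the 7 leukocyte chains, 2 fell and 5 did not pass. Itgb2, the beta chain common to the main leukocyte integrins, ran from 7.91 to 9.32 in the cancers with a median of 8.51, and had 10.66, 9.37 and 9.70 in the normal tissues. All 33 cancers lay below all normal tissues and the difference was -1.37 ± 0.19 (SE, limma adjusted p 4.36e-06). Itgax, the alpha chain of dendritic cells and many macrophages, ran from 7.60 to 9.68 with a median of 8.66 in the cancers and had 10.51, 9.12 and 9.22 in the normal tissues. It overlapped in 3 cancers, and its difference of -1.05 ± 0.31 (limma adjusted p 0.0103) was -0.60 with an adjusted p of 0.213 without the first normal tissue. Both chains were highest on that normal tissue.

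The other leukocyte chains were not called: Itgal, the lymphocyte chain, differed by -0.47 ± 0.21 (adjusted p 0.0926), Itgb7 by -0.35 ± 0.20, and Itgae by -0.01 ± 0.14. Itgam and Itgad, at -0.44 ± 0.35 and -0.51 ± 0.27, exceeded the intensity limit on 4 arrays each, so little can be read from them. Beside these chains, 3 of 7 macrophage markers fell and none rose, with a summed intensity of 7025 to 21894 in the cancers and 13783 to 20401 in the normal tissues. Of 7 pan-leukocyte and lymphoid markers, 1 fell, Ptprc (-0.88 ± 0.30). Their sums were 814 to 3046 in the cancers and 2243 to 2859 in the normal tissues.

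Other cell type markers also moved between cancers and normal tissue. All 7 adipocyte markers fell, with a summed intensity of 1203 to 8944 in the cancers and 27070 to 37043 in the normal tissues, and all 7 endothelial markers fell, with sums of 1864 to 4524 and 6168 to 8964 in the same order. Of 8 luminal epithelial markers, 6 rose and 1 fell, with sums of 37815 to 63160 in the cancers and 38773 to 52696 in the normal tissues. Of 8 basal and myoepithelial markers, 2 rose and 1 fell (sums of 17431 to 34057 and 18548 to 23830). Of 6 fibroblast markers, 1 fell (Pdgfra, -1.21 ± 0.40), with sums of 2376 to 43738 in the cancers and 32246 to 37313 in the normal tissues. Of 2 platelet markers, 1 fell (Pf4) and the other is Itga2b itself, with sums of 382 to 1732 in the cancers and 1371 to 2027 in the normal tissues. Of 2 Schwann cell markers, S100b fell by 2.84 ± 0.33 and Sox10 had -0.83 ± 0.36 without passing, with sums of 1215 to 4291 in the cancers and 6677 to 6860 in the normal tissues. The part of these shifts in the integrin and laminin results was not tested.

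The same direction was seen in each cancer group for the strongest members. Lamb3 group means lay between 10.48 (the single mutated PhIP cancer) and 11.30 (both mutated MNU groups), all above the 9.61 of normal tissue. Itgb6 means lay between 9.39 in nonmutated radiation plus MNU cancers and 10.31 in mutated MNU cancers, against 8.36 in normal tissue. Itga7 means lay between 7.72 and 8.05, against 9.81. Itgb2 means lay between 8.15 in radiation plus PhIP cancers and 8.90 in the mutated PhIP cancer, against 9.91. The members varied more among the cancers than other probe sets did, with a median SD of 0.343 over the 33 cancers for the 44 members and 0.275 for all 21947 probe sets, and no test was made of that difference.

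**Figure D3:**
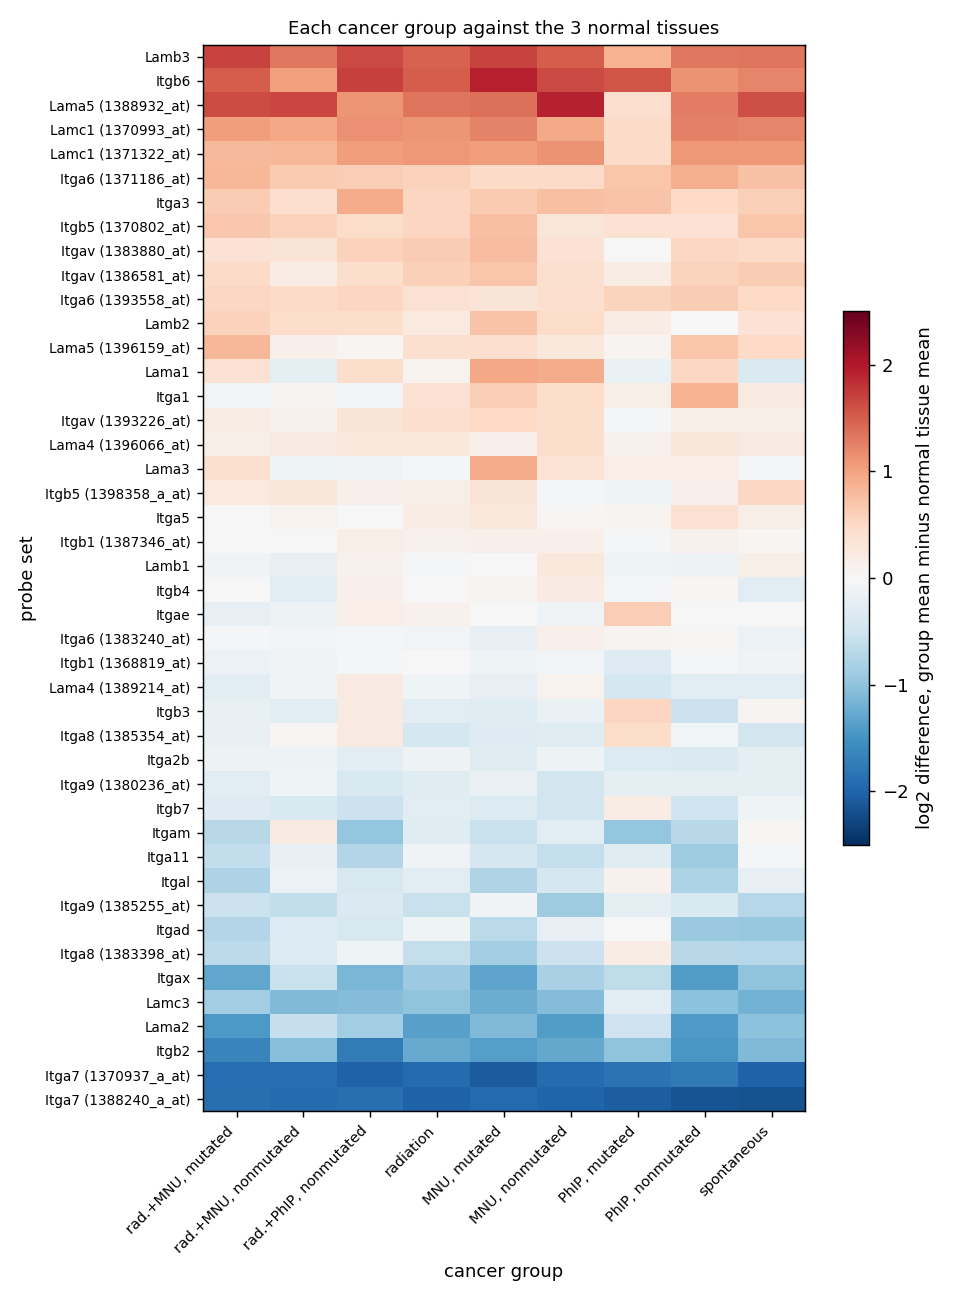
Log2 difference of each cancer group's mean from the mean of the 3 normal tissues (colour), for the 44 tested probe sets (rows, ordered by the overall difference) and 9 cancer groups (columns, n = 5, 4, 4, 4, 5, 4, 1, 3 and 3 from left to right). Lamb3, Itgb6, Lama5 and Lamc1 are above and Itga7, Itgb2, Lama2 and Lamc3 are below normal tissue in all 9 columns, whereas Lama1 changes sign between groups.

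The genes around these chains moved in both directions. Of 11 tested basement membrane partners, 5 rose and 4 fell: the collagen IV chain Col4a5 rose by 1.44 ± 0.20, Col18a1 by 1.32 ± 0.24 and Col4a1 by 0.64 ± 0.15, while the laminin-binding linker Nid2 fell by 0.99 ± 0.24. Of 10 other integrin ligands, 1 rose and 5 fell. The leukocyte ligand Icam2, also an endothelial gene, fell by 1.38 ± 0.20 and vitronectin (Vtn) fell by 1.70 ± 0.36. The fibrinogen chain Fgg fell by 2.52 ± 0.62 and osteopontin (Spp1) fell by 1.53 ± 0.57. Of 7 laminin receptors and hemidesmosome genes, 2 rose and none fell. Plec, which links hemidesmosomes to keratin, rose by 0.49 ± 0.15, and the Lama5 receptor Bcam rose by 0.68 ± 0.26 with an adjusted p of 0.0496.

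Of 19 integrin adaptors and kinases, 1 rose and 7 fell. The kinase Src rose by 1.27 ± 0.22, whereas the focal adhesion proteins Zyx, Lims1 and Tns1 fell by 0.71 ± 0.10, 0.38 ± 0.08 and 1.53 ± 0.37. Of 7 genes of latent TGF-beta, on which Itgav with Itgb6 acts, 2 rose and 3 fell. Ltbp2 rose by 1.48 ± 0.40, Ltbp4 fell by 0.73 ± 0.16, and the ligands Tgfb2 and Tgfb3 fell by 1.10 ± 0.33 and 1.14 ± 0.40. These lists were counted on 1 probe set per gene, with p adjusted over all 21947 probe sets, of which 30.5% passed. Counted in that way, 10 of 32 integrin and laminin genes passed, 5 higher and 5 lower. In a separate fit of 1 probe set per gene, 34.4% of all genes passed.

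Between H-ras mutated and nonmutated cancers, averaged over the MNU cancers with and without radiation, no integrin or laminin probe set passed the test (0 of 44 by limma), and neither did any other of the 21947 probe sets (0% called). At an unadjusted p of 0.05, 9 of 44 members and 7.19% of all probe sets passed. The 3 with the smallest p were Itgal (-0.48 ± 0.17, p 0.00695), Itgb5 on probe set 1370802_at (0.27 ± 0.10, p 0.0103) and Itgax (-0.64 ± 0.24, p 0.0130), each with an adjusted p of 0.496 or more. Itgal had 9.08 ± 0.31 in the 10 mutated cancers and 9.56 ± 0.51 in the 8 nonmutated cancers (SD), and the ranges overlapped. Itgb2 (-0.35 ± 0.15) and Itgam (-0.61 ± 0.28) were also among the 9. The rest of the 9 are not named here, so the leukocyte chains named do not describe the 9 as a set. Beside those leukocyte chains, the 7 macrophage markers had a median difference of -0.44, with none called. Their sums were 7462 to 9556 in mutated and 8266 to 13970 in nonmutated MNU cancers, and 8130 to 16501 in mutated and 15722 to 21894 in nonmutated radiation plus MNU cancers.

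Within the MNU cancers alone, 5 members passed an unadjusted p of 0.05 and none the adjusted threshold (background 7.53% and 0%). Itgb5 (1370802_at) differed by 0.44 ± 0.14, Itga6 (1383240_at) by -0.33 ± 0.12 and the dim Itga9 probe set by 0.82 ± 0.33. On these Itgb5 and Itga6 probe sets the 5 mutated and the 4 nonmutated cancers did not overlap. How many of all probe sets separate these groups likewise was not counted, so little can be read from it. The other tested Itga6 probe sets overlapped. Their means in mutated and nonmutated cancers were 10.409 and 10.406 (1371186_at), and 10.88 and 10.98 (1393558_at). Within radiation plus MNU cancers, 6 members passed the unadjusted and none the adjusted threshold (background 3.24% and 0%), led by Itgb2 (-0.59 ± 0.21), Itgal (-0.63 ± 0.24) and the dim Lama5 probe set (0.70 ± 0.28). On the brighter Lama5 probe set (1388932_at) these groups overlapped. The mutated cancers had 12.67, 11.87, 11.72, 10.69 and 12.40 there, and the nonmutated cancers 11.89, 12.61, 11.67 and 11.50. The difference between the H-ras effects with and without radiation was tested as an interaction, which called no member. Its smallest p was for Lama2 (the effect with radiation minus that without was -1.15 ± 0.51, p 0.0318, adjusted p 1.00), followed by Itga6 on probe set 1383240_at (0.34 ± 0.17, p 0.0538) and Itgb5 on probe set 1398358_a_at (-0.41 ± 0.21, p 0.0662), with 1 member and 2.97% of all probe sets at an unadjusted p of 0.05.

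Across the 6 causes of nonmutated cancers, no member passed the F test in limma (0 of 44, where 9 of all probe sets or 0.041% passed), and at an unadjusted p of 0.05 the numbers were 2 members and 8.06% of all. The members with the smallest p were Lama1 (F 3.29, p 0.0178, adjusted p 0.538), Itgb4 (F 2.55, p 0.0497) and the dim Itga11 (F 2.46, p 0.0559). Lama1, an alpha chain best known from embryonic basement membranes, was at 8.22, 7.96, 7.87 and 8.15 in nonmutated radiation plus MNU cancers and at 7.85, 9.71, 9.45 and 9.85 in nonmutated MNU cancers, so the first lay below 3 of the 4 others. Radiation plus PhIP cancers had 7.81, 8.76, 8.75 and 9.60, and nonmutated PhIP cancers 9.18, 8.27 and 8.97. Radiation cancers had 8.64, 7.71, 8.58 and 8.58, against 7.88, 7.83 and 8.06 in spontaneous cancers. The 3 spontaneous arrays were tightly grouped and low, and the MNU array with 9.85 is the one with the high hexokinase ratio.

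Each induced nonmutated group was also set against the 3 spontaneous cancers, which all 5 comparisons share. None called a member, and they called 0.041% (radiation), 0.0365% (MNU), 0.00456% (PhIP), 0% (radiation plus MNU) and 0.0228% (radiation plus PhIP) of all probe sets. At an unadjusted p of 0.05 the members numbered 2, 5, 4, 0 and 6 of 44 in that order, and the shares of all probe sets were 4.62%, 7.76%, 4.64%, 8.11% and 8.99%. Against spontaneous cancers, MNU cancers differed most for Lama1 (1.29 ± 0.39, p 0.00271, adjusted p 0.481), Itgb5 on probe set 1398358_a_at (-0.56 ± 0.17, p 0.00284) and Itgb4 (0.48 ± 0.19). That Itgb5 probe set had 10.50, 10.57, 10.76 and 10.18 in nonmutated MNU cancers and 11.07, 10.86 and 11.26 in spontaneous cancers, with no overlap. The share of all probe sets that separate these groups likewise was not counted.

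The same Itgb5 probe set was among the 3 smallest p in each of the other comparisons, with -0.36 ± 0.17 in radiation, -0.39 ± 0.18 in PhIP, -0.23 ± 0.17 in radiation plus MNU and -0.39 ± 0.17 in radiation plus PhIP cancers. These values rest on the same 3 spontaneous arrays. The other members with the smallest p in radiation cancers were the dim Itgad (0.84 ± 0.35) and Itgb4 (0.28 ± 0.19). In PhIP cancers they were Itgal and the dim Itga11. Itgal had -0.60 ± 0.29 there, and beside it the summed pan-leukocyte and lymphoid markers were 814, 1413 and 1215 in nonmutated PhIP cancers and 1899, 1961 and 1812 in spontaneous cancers, with no overlap. The part of these markers in the Itgal value was not tested. Itga11 had -0.84 ± 0.35, from 5.58, 6.69 and 6.70 in nonmutated PhIP cancers and 7.59, 6.93 and 6.98 in spontaneous cancers, and -0.48 without nonmutated PhIP cancer 2, the one with the low fibroblast sum. In radiation plus MNU cancers the smallest p were those of Itgav on probe set 1386581_at (-0.45 ± 0.23, p 0.0583) and the dim Itgad (0.61 ± 0.35, p 0.0910). The other Itgav probe sets differed less. Their means were 8.25 against 8.42 in spontaneous cancers (1383880_at) and 10.55 against 10.59 (1393226_at). In radiation plus PhIP cancers Itgb2 differed by -0.66 ± 0.24 (p 0.0117, adjusted p 0.420), with 7.91, 8.53, 8.05 and 8.10 against 8.91, 8.70 and 8.81 in spontaneous cancers, and Itgam, dim, by -1.001 ± 0.44.

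Radiation against no radiation, averaged over the backgrounds with equal weight, called no member and no other probe set (0%), with 1 member and 9.04% of all probe sets at an unadjusted p of 0.05. That member was Itga1, a collagen receptor chain, at 7.31 over 17 irradiated and 7.77 over 15 non-irradiated cancers (-0.46 ± 0.22, p 0.0435, adjusted p 0.549). Next came Itga5 (-0.14 ± 0.07, p 0.0638) and Lama1 (-0.34 ± 0.19, p 0.0747). None of the basement membrane, ligand, receptor, adaptor or TGF-beta lists had a called gene in the H-ras, cause or radiation comparisons.

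**Figure D4:**
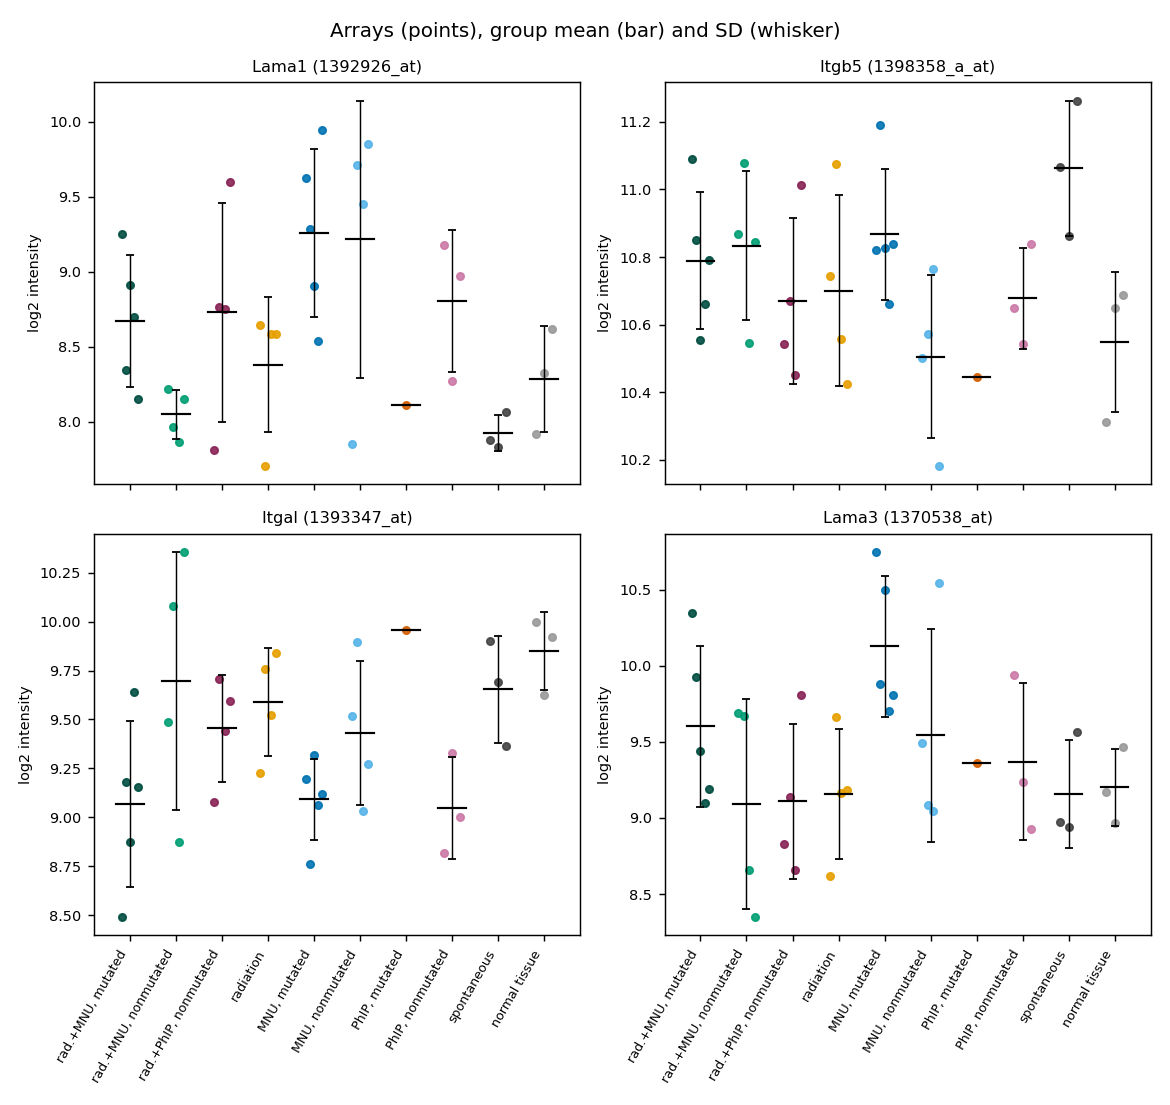
Log2 intensity on every array for Lama1, Itgb5 (1398358_a_at), Itgal and Lama3, by group (points are arrays, bars are means, whiskers are SD, and the mutated PhIP group has 1 array). Spontaneous cancers are low and close together for Lama1 (7.83 to 8.06) and high for Itgb5 (10.86 to 11.26), and no difference between cancer groups passed the test.

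Chains that are known to pair were compared across the 33 cancers. Of 28 listed pairs, 23 had both chains tested, and 6 passed a permutation test of Pearson's r after adjustment over the 23, each with a positive r. The strongest was the laminin pair Lamb1 and Lamc1, with r = 0.70 (permutation p 1e-05, the smallest that 100000 resamples can give, adjusted p 0.00023) and rho = 0.65. Without the 2 cancers farthest from the Lamb1 median r was 0.63, and with group means removed it was 0.74. Values with group means removed rest on 32 cancers, without the single mutated PhIP cancer. Their permutation takes no account of the means removed, so its p is too small. Lama5 and Lamc1 had r = 0.44 and rho = 0.42 (permutation, adjusted p 0.0378 and 0.0636). Without the 2 cancers farthest from the Lama5 median r fell to 0.29, so its size depends in part on them. Leaving them out also narrows the range of Lama5, which by itself can lower r. With group means removed, over the 32 cancers, r was 0.54 (permutation, adjusted p 0.00685, too small for the reason given). Leaving out 1 of 10 cancers also ended this call, with adjusted permutation p of up to 0.143. These were spontaneous 2, radiation 2, mutated MNU 1, nonmutated MNU 2 and 4, the mutated PhIP cancer, mutated radiation plus MNU 1 and 4, nonmutated radiation plus MNU 4 and radiation plus PhIP 1.

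The other 4 pairs all held Itgb2. Itgal with Itgb2 had r = 0.69 and rho = 0.63 (permutation, adjusted p 0.000345 and 0.0013), and 0.73 with group means removed. Itgam with Itgb2 had r = 0.61 (rho = 0.59), Itgax with Itgb2 0.59 (rho = 0.44), and Itgad with Itgb2 0.44 (rho = 0.47, adjusted p 0.0378 for r), by the same permutation test. Without the 2 farthest cancers these r were 0.61, 0.56, 0.45 and 0.38 in the same order. With group means removed the r of the Itgam, Itgax and Itgad pairs were 0.48, 0.54 and 0.59 (permutation, adjusted p 0.0216, 0.0069 and 0.0024). These p-values are too small in the same way. The Itgad pair lost its call, with adjusted permutation p of up to 0.099, without 1 of 11 cancers: radiation 2, nonmutated MNU 2 and 4, the mutated PhIP cancer, mutated radiation plus MNU 1, 4 and 5, nonmutated radiation plus MNU 2, 3 and 4, or radiation plus PhIP 1. Itgad and Itgam are dim. The points share the arrays, and the Itgb2 pairs share 1 probe set.

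Among the 17 pairs that did not pass, Itga6 with Itgb4 had r = 0.24, Itgav with Itgb6 0.21, Itga3 with Itgb1 0.01 and Lama3 with Lamb3 0.34 (rho 0.18, 0.21, 0.01 and 0.35). The lowest r was -0.25, for Itga8 with Itgb1.

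**Figure D5:**
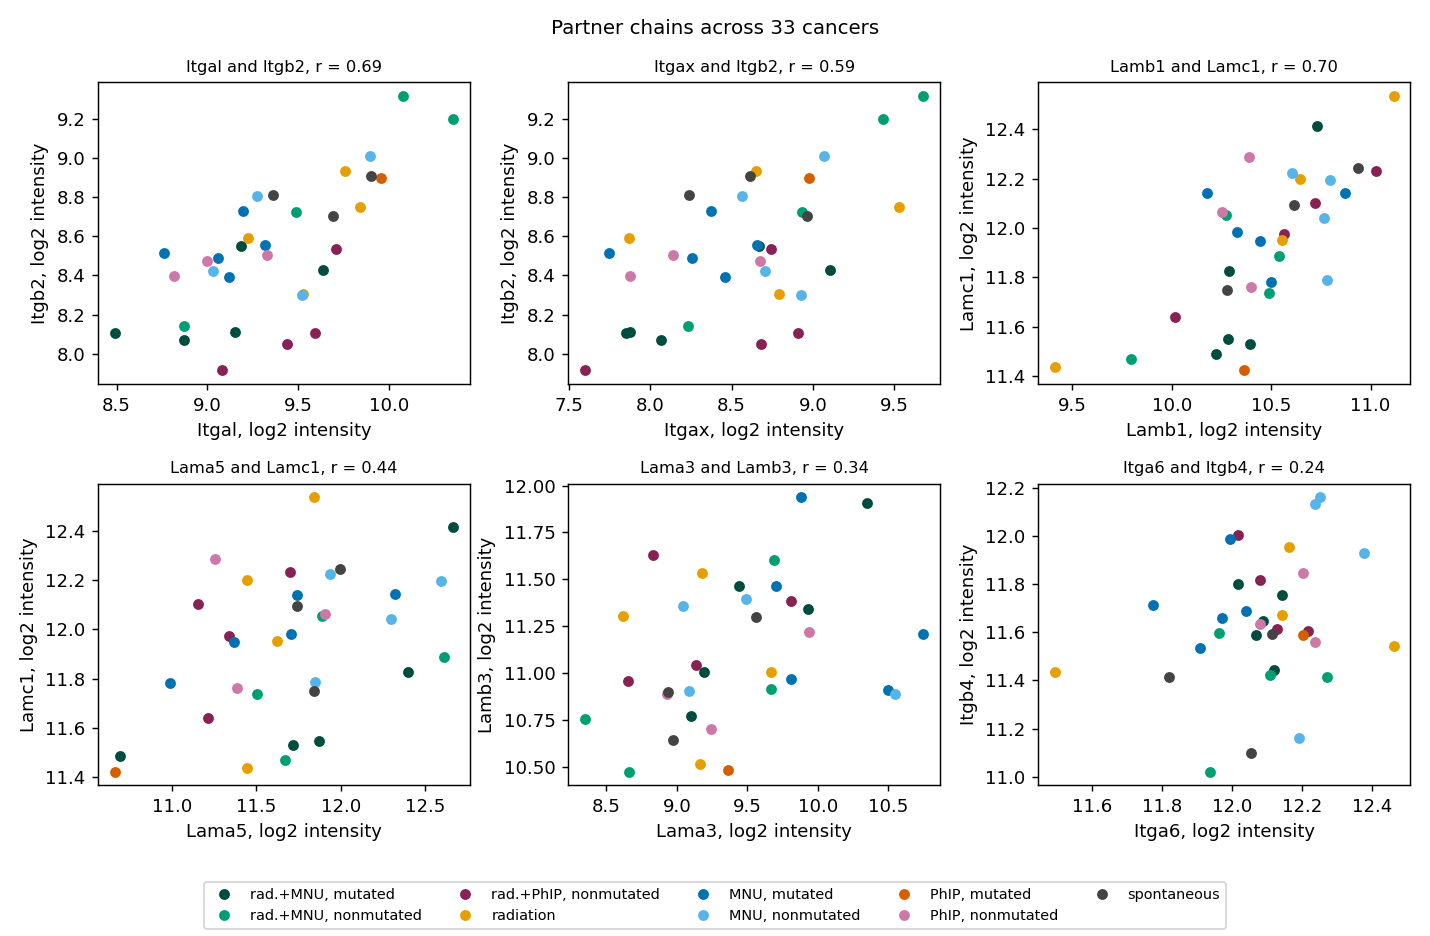
Log2 intensities of 6 pairs of partner chains across 33 cancers, 1 point per cancer coloured by group, with Pearson's r above each panel. Itgal and Itgax with Itgb2 and Lamb1 with Lamc1 lie along rising bands (0.69, 0.59 and 0.70), while Itga6 with Itgb4 (0.24) forms a cloud.

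The promoters of the laminin chains in called pairs, and of the epithelial members with the largest rises, are shown. They are the sequences next to the start sites of the genes these results turn on. Each runs from 250 bases before to 50 after the gene's start in RefSeq (build GRCr8), and 24 of the 32 genes had one. Capitals mark matches, on either strand, to the GC box GGGCGG and to the motif GAGGAAG bound by PU.1, a leukocyte factor. Also searched were TGANTCA of AP-1 and CAGCTG of MyoD, an E-box. Neither of those occurs in the 5 windows shown. The windows of Lamb1 (chr6:53562846-53563145, plus strand), Lamc1 (chr13:68051937-68052236, minus strand) and Lama5 (chr3:187695925-187696224, minus strand) come first, then those of Lamb3 (chr13:107362303-107362602, plus strand) and Itgb6 (chr3:65530284-65530583, minus strand).
Lamb1: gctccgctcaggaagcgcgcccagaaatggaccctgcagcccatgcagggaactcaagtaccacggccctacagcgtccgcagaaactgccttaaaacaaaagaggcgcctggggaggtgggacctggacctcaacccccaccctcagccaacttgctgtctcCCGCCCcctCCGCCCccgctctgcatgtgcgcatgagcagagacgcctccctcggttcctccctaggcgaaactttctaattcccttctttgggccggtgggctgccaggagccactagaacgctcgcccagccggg
Lamc1: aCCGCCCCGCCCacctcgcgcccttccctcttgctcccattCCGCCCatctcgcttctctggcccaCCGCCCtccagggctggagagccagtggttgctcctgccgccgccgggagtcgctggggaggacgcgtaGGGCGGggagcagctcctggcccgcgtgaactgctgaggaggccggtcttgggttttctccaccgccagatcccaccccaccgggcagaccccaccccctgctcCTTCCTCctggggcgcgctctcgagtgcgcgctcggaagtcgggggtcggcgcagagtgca
Lama5: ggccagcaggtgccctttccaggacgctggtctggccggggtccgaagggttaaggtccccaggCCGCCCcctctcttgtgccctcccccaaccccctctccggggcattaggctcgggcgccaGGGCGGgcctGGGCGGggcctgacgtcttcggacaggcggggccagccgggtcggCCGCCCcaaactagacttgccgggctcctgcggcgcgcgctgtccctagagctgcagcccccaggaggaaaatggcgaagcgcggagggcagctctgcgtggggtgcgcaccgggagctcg
Lamb3: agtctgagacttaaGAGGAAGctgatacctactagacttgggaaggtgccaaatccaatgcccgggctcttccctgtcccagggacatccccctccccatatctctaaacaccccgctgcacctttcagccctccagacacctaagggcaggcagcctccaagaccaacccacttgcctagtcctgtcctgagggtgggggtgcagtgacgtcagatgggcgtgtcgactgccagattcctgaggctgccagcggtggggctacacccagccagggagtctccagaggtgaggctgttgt
Itgb6: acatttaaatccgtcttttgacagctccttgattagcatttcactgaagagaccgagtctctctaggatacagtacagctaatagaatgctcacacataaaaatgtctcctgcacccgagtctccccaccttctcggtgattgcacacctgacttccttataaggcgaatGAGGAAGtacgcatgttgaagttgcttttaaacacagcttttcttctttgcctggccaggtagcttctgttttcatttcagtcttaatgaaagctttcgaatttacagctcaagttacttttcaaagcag

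In this window there were 2 GC boxes in Lamb1, 5 in Lamc1 and 4 in Lama5, the first ones of Lamc1 overlapping. Lamc1 also had 1 GAGGAAG match. Any link between these matches and the correlations was not tested. Lamb3 and Itgb6 had no GC box and 1 GAGGAAG match each. A GC box lay in 33.1% of 33469 rat promoters and in 13 of the 24 member promoters. GAGGAAG lay in 12.4% and in 8 of 24, TGANTCA in 7.33% and in 2 of 24, and CAGCTG in 15.1% and in 3 of 24. A match is a run of letters, not a measured binding site.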

How the data were processed

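Each value deposited by the authors is a linear intensity of 1 probe set on 1 array. The software that scaled the arrays and summarised the probes is not named in the sources used. Total RNA was labelled as biotin cRNA, per the labels' protocols. Intensities were transformed as log2(intensity + 42.8), the 20th percentile of all values. Probe sets over 125.8 (40th percentile) on at least 3 of 36 arrays were tested. The 57 control probe sets were left out, which gave 21947. A model with 1 mean per label group was fitted by lmFit and moderated by eBayes (limma 3.58.1, R 4.3.3), and p-values were adjusted over all 21947 by Benjamini-Hochberg. The fit was tested on simulated data. The cancer mean is over 33 arrays, and the mutated PhIP array entered no other contrast. Partner chains used two-sided permutation tests. For genes with several kept probe sets, the one with the highest mean stands for the gene. Named genes are every called member, or the 3 with the smallest p where none was called, and up to 4 per pathway list. Members and lists were chosen with earlier results of these data known. Precision rests on the number of arrays. Array correlations within groups were at least 0.870, and the highest between any pair was 0.978. Alternatives covered the added constant, normalization, filter, probe set choice, replicate block, variance trend and single arrays left out.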

Additional observations from a re-analysis of the deposited data

Results flagged for a closer look

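In 4 of 102 checks, made on 17 called probe sets in groups of 4 or 5 cancers, 1 cancer lay far from the rest of its group. Chance alone marks about 1 in 20. Itga6 (1371186_at) was 10.9837 in the second mutated MNU cancer, against 10.34 for the nearest other. Itgav (1383880_at) was 8.80288 in the first mutated radiation plus MNU cancer, against 8.27. Itgav (1386581_at) was 8.87237 in the second nonmutated radiation plus MNU cancer, against 8.38. In that same cancer Itga3 was low, at 10.903 against 11.37. These values are on the log2 scale and no cause was tested.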

How the results depend on the processing

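The 17 called integrin and laminin probe sets (11 higher, 6 lower in cancers) became 17 with either other constant, without the filter, with a variance trend and with the replicate block, 16 after quantile normalization, 16 of 34 under the stricter filter and 15 after median centring. With 1 probe set per gene the count was 10 of 32, where fewer probe sets are tested. Leaving out 1 array gave 13 to 18, and the low counts were 14, 13 and 15 without normal tissue 1, 2 and 3. Without normal tissue 3 and the fourth nonmutated MNU cancer together, a setting chosen after seeing the data, it was 16 (9 higher, 7 lower). Every other comparison called 0 members under each setting run, from 0 to 0 with 1 array left out. Partner pairs numbered 6, with 4 of 18 under the stricter filter, 8 after median centring, 4 without both doubted arrays and 4 to 6 with 1 cancer left out. Named members kept direction and call in 474 of 480 values under other settings and in 1791 of 1800 with 1 array left out. None reversed, and the rest were called members that lost the call. Most of these values belong to members that were not called, which kept their call only by staying uncalled. The 9 calls lost with 1 array left out were all lost without a normal tissue. Replicate numbers did not pair the samples: same-numbered arrays had a median correlation of deviations of 0.0093 over 122 pairs, against 0.0025 for other numbers, and 8 of 35 arrays correlated best with their own number. Signal limits the dim probe sets of Itga7, Itgad, Itgam, Itga9 and Itga11, which passed the filter on 3 to 5 arrays.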
